A study of Homo sapiens with 60 samples.

Results

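The lysosome and autophagy genes described here are 37 of the 38342 gene names in the deposited expression table. They were listed by gene name with earlier results of these data known, and the list has no threshold on measured values. By role they comprise 3 transcription factors of the TFEB family, 5 genes of the lysosomal membrane and of lipid or ion transport, 10 lysosomal enzymes and activators, 4 subunits of the lysosomal proton pump, 4 members of the ATG8 family, 3 autophagy receptors and 8 genes of autophagosome initiation and conjugation. All 37 were found in the table and all 37 passed the filter on low values (at least 1 FPKM, fragments scaled by transcript length and library depth, in at least 3 libraries), as did 15866 genes in all.

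Lysosomes are acidic compartments in which proteases, glycosidases and lipases break down material delivered by endocytosis and by autophagy, and a rotary proton pump keeps them acidic. Autophagy encloses cytoplasm in a membrane that carries lipid-linked ATG8 proteins, and receptors such as SQSTM1 bind both cargo and ATG8. TFEB, TFE3 and MITF are related transcription factors that activate many lysosomal and autophagy genes through a palindromic promoter element, and the kinase complex mTORC1 at the lysosomal surface holds them in the cytoplasm when nutrients are plentiful.

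RNA was measured in MDA-MB-231, an established triple-negative human breast cancer line, so that every group is a model of 1 cell line. Cells received the solvent DMSO or the compound BAY2506856 at 100, 300 or 1000 nM, and the labels give times of 1, 3, 6 and 24 h, whereas the design text names 24 h alone. Each of the 16 groups of dose and time held 3 treated libraries or 6 DMSO libraries, 60 in all. The labels do not name the target of the compound, and nothing says that libraries of a group came from separate cultures, and the spread behind each p-value may therefore be technical.

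Promoter sequences are shown because the TFEB family acts through a 10-base palindrome, which is the core TCACGTGA with G before it and C after it. RefSeq promoters (GRCh38.p14, 250 bases before to 50 after the gene start, 300 bases each) were found for 30 of the 37 members and for 27305 genes in all. LAMP2, CTSB, HEXA, PSAP, ATP6V1H, ATP6V1A and UVRAG are named only. The 10-base element was present in 104 promoters (0.381%), the 8-base core in 283 (1.04%) and the E-box CACGTG, which lies within both, in 2030 (7.43%). All 3 motifs are palindromes, so a match on one strand is a match on the other. Among the 30 members, the 10-base element was found in GAA (2 copies) and MCOLN1, the 8-base core also in LAMP1 (2 copies), CTSA and ATP6V0D1, and the E-box also in CTSD and NEU1. The first 2 promoters below hold the 10-base element, and the other two, chosen after their values were seen, hold the core and belong to genes that rose at 24 h. Capitals mark the 10-base element in GAA (chr17:80101331-80101630, plus strand) and MCOLN1 (chr19:7522374-7522673, plus strand), and the 8-base core in CTSA (chr20:45891085-45891384, plus strand) and LAMP1 (chr13:113296989-113297288, plus strand).
GAA: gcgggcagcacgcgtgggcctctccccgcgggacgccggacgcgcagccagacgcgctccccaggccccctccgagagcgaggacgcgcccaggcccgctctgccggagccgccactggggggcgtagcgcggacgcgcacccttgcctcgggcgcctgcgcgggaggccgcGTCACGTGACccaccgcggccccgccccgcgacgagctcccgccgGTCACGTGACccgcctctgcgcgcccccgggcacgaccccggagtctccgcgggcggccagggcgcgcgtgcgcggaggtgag
MCOLN1: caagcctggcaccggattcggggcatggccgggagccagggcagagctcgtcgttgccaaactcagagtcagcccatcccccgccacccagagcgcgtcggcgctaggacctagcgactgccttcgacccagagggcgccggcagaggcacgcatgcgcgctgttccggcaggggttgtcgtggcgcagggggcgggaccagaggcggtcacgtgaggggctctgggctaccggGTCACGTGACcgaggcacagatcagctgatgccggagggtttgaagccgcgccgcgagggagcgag
CTSA: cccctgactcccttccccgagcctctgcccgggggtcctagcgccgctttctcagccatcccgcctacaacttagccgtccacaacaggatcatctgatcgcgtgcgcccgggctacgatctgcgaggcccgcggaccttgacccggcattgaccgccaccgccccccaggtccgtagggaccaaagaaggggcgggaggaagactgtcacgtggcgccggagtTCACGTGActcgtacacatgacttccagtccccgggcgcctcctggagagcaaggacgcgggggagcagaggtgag
LAMP1: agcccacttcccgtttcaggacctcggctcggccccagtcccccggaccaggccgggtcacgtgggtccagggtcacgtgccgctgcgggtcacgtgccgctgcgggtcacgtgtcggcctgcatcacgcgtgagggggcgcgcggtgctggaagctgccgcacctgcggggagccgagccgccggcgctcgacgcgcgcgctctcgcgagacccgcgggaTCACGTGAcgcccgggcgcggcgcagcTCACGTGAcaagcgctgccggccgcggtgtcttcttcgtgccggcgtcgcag
A match is a description of these letters and says nothing of whether a factor bound there. At 24 h LAMP1 and CTSA rose at all 3 doses, and GAA and MCOLN1 passed the test at none. This contrast was set by the choice of LAMP1 and CTSA and is no comparison of the motifs. ATP6V0D1, which also holds the core, passed at no dose. With the terms for library type described below, GAA rose at all 3 doses (0.76, 0.75 and 0.63 at 1000, 300 and 100 nM). With the same terms, MCOLN1 (0.03, -0.06 and -0.13) and ATP6V0D1 (0.0046, 0.11 and 0.05) still passed at no dose.

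Libraries held 475370 to 86491555 reads (median 11178788), and 3 had fewer than 2000000: replicate 2 of DMSO at 24 h, replicate 2 of 300 nM at 24 h and replicate 2 of 1000 nM at 3 h. Libraries fell into 3 types by the values of genes outside the list. The difference in mean log2 level between 5 pseudogenes and 5 others was -3.20 to -1.81 in 41 libraries of the first type and 2.39 to 4.69 in 13 of the second, and 6 libraries of the third type (3 of DMSO at 1 h and 3 of DMSO at 3 h) had 56.9 to 105 FPKM of mitochondrial MT-ND6, against 0.848 to 5.71 in the first type. At 24 h the second type comprised DMSO replicate 2, 300 nM replicate 2 and 1000 nM replicates 1 and 3, and at 6 h DMSO replicate 5 and 300 nM replicate 1. Because this touches 24 h, the counts at that time are also given with terms for library type and with the first type alone. Mesenchymal markers of the line were high throughout (VIM 397 to 642 FPKM, CD44 104 to 182), apart from SPARC (0 to 0.450), and the luminal receptor ESR1 was at most 0.00263. The luminal list was not low as a whole, since KRT8 measured 71.5 to 144 FPKM and GATA3 1.34 to 5.58. Its other genes PGR, FOXA1 and CDH1 were at most 0.0128, 0.0432 and 1.09.

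After 24 h with BAY2506856, TFEB, the proteases CTSA, CTSB and CTSZ, 3 of the 4 ATG8 genes and all 3 autophagy receptors stood higher than in DMSO at every dose, while the ATG8 gene GABARAP passed the test at none. A member is said to rise or fall where limma's test on log2(FPKM + 0.5), adjusted over all genes tested by Benjamini-Hochberg, gave an adjusted p under 0.05. Changes are on that scale, which understates those of low genes. At 1000 nM 18 of 37 members rose and 1 fell, where 19.1% of all genes tested rose and 15.6% fell. At 300 nM 20 rose and 2 fell, against 16.5% and 14.2% of all genes. At 100 nM 19 rose and 1 fell, against 10.5% and 9.2%. The median log2 change of the members was 0.28 at 1000 nM, 0.35 at 300 nM and 0.33 at 100 nM, beside 0.03, 0.05 and 0.05 over all genes tested. The same DMSO libraries serve all 3 doses, so the doses are set side by side and not counted as repeats of each other. In bulk RNA, a change in the number of expressing cells and a change in RNA per cell cannot be told apart.

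The members that rose at 1000 nM were TFEB, LAMP1, LAMP2, CTSA, CTSB, CTSZ, PSAP, ATP6V0A1, ATP6V1H, MAP1LC3B, GABARAPL1, GABARAPL2, SQSTM1, NBR1, OPTN, WIPI1, ATG13 and BECN1, and GLA fell. At 300 nM the list had HEXA, NEU1 and ULK1 in addition and lacked ATP6V1H, and MITF and GLA fell. At 100 nM it had CTSD, HEXA and ULK1 in addition and lacked ATP6V1H and BECN1, and MITF fell. The 13 that passed at no dose were TFE3, NPC1, NPC2, MCOLN1, GAA, GRN, ATP6V0D1, ATP6V1A, GABARAP, ATG5, ATG7, ATG9A and UVRAG.

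**Figure D1:**
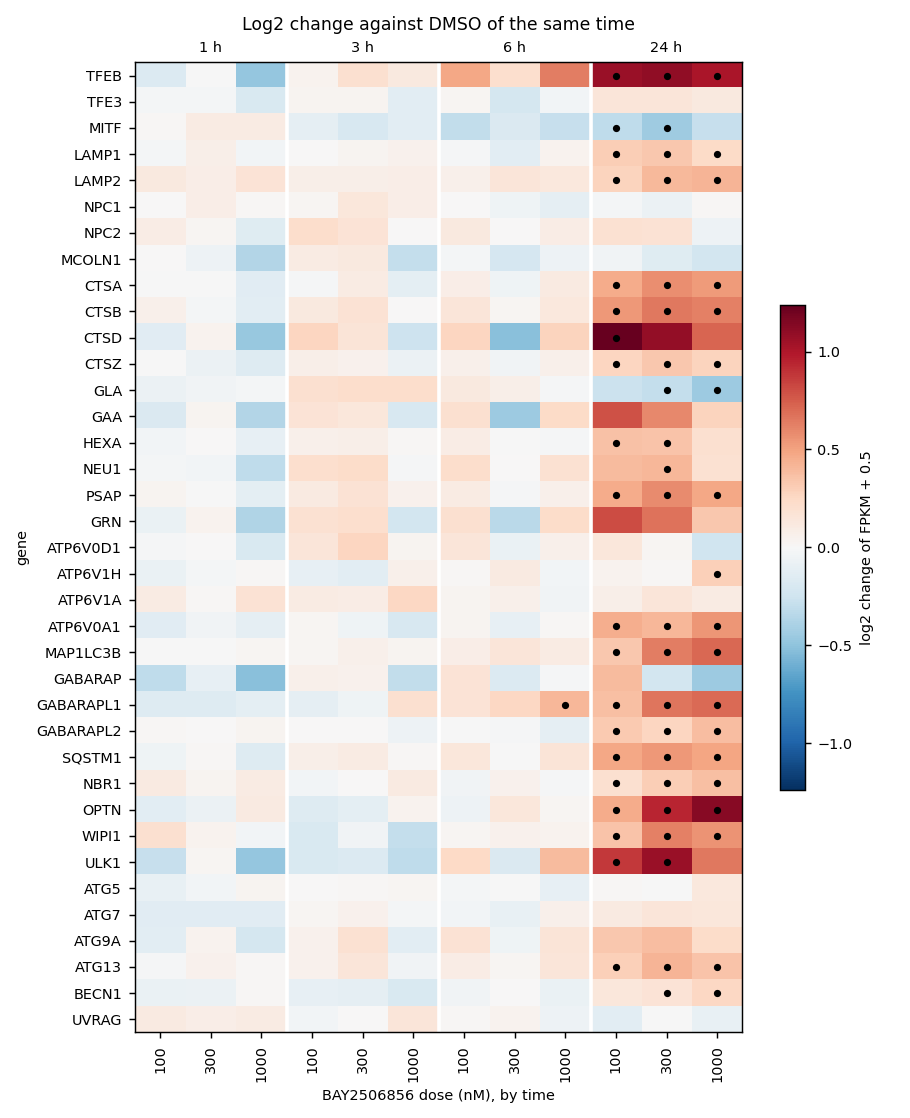
Log2 change of FPKM + 0.5 against DMSO of the same time for the 37 members (rows) at 100, 300 and 1000 nM and 4 times (columns); red is higher, blue is lower, and a dot marks an adjusted p under 0.05. The dots lie almost wholly in the 24 h columns, the one exception being GABARAPL1 at 1000 nM and 6 h.

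In the TFEB family, TFEB rose at all 3 doses, MITF fell at 100 and 300 nM and TFE3 passed at none. The TFEB level at 24 h was 3.42, 5.54 and 2.59 FPKM in the 3 libraries at 1000 nM, 4.81, 2.31 and 5.35 at 300 nM and 4.55, 3.81 and 3.30 at 100 nM, against 0.366 to 2.50 (median 2.00) in 6 DMSO libraries. Every library at 100 and 1000 nM lay above every DMSO library, while replicate 2 of 300 nM fell within their range. The log2 change (± SE) was 1.01 ± 0.28 at 1000 nM (adjusted p = 0.00374), 1.10 ± 0.28 at 300 nM (adjusted p = 0.00196) and 1.07 ± 0.28 at 100 nM (adjusted p = 0.00424), or 2.01-fold, 2.14-fold and 2.10-fold on this scale. The lowest DMSO value rests on 1 read in the library of 475370 reads.

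TFE3, the most abundant of these factors, measured 23.3, 30.6 and 24.1 FPKM at 1000 nM and 20.7 to 26.3 (median 24.1) in DMSO, and the groups overlapped (log2 change 0.12 ± 0.15, adjusted p = 0.578). With terms for library type the TFE3 change was 0.33 (adjusted p = 0.0001). MITF measured 3.13, 1.76 and 2.31 FPKM at 1000 nM, 2.00, 2.12 and 2.01 at 300 nM and 2.36, 2.26 and 2.20 at 100 nM, against 2.64 to 3.73 (median 2.85) in DMSO. All libraries at 100 and 300 nM lay below every DMSO library. The MITF change was -0.44 ± 0.11 at 300 nM (adjusted p = 0.00197) and -0.32 ± 0.11 at 100 nM (adjusted p = 0.0424), whereas at 1000 nM it missed the threshold (-0.28 ± 0.11, adjusted p = 0.0503), with replicate 1 inside the DMSO range. MITF at 1000 nM passed with type terms (-0.39, adjusted p = 0.000805) and without replicate 1 of that dose (-0.46, adjusted p = 0.00344).

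Of the 5 genes of the lysosomal membrane and of lipid or ion transport, LAMP1 and LAMP2, the abundant glycoproteins that line the lysosomal membrane, rose at 1000 nM. LAMP2 measured 89.3, 80.5 and 90.5 FPKM at 1000 nM against 60.3 to 72.9 (median 63.4) in DMSO, with no overlap (log2 change 0.42 ± 0.08, adjusted p = 4.02e-05). LAMP1 measured 36.3, 39.3 and 31.9 FPKM against 25.6 to 32.5 (median 31.9), and replicate 3 of 1000 nM lay inside the DMSO range (log2 change 0.23 ± 0.08, adjusted p = 0.024). At 300 nM, where all libraries lay above DMSO, the LAMP1 change was 0.34 ± 0.08 (adjusted p = 0.00114). The cholesterol exporters NPC1 and NPC2 and the calcium channel MCOLN1 did not pass at any dose, with changes of 0.02 ± 0.08, -0.06 ± 0.11 and -0.23 ± 0.19 at 1000 nM and overlapping libraries in each case. With type terms NPC2 rose at 300 nM alone (0.23, adjusted p = 0.00106), and NPC1 and MCOLN1 again passed at no dose.

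The 10 lysosomal enzymes and activators held the highest levels of the list: in DMSO at 24 h PSAP, the precursor of the saposins that present lipids to hydrolases, averaged 293 ± 20.2 FPKM (SD, n = 6), the aspartic protease CTSD 234 ± 106 and the cysteine protease CTSZ 174 ± 12.6, against 1.21 ± 0.629 for the lowest member, GABARAP. At 1000 nM 4 of the 10 rose, 1 fell and 5 did not pass. The cysteine protease CTSB measured 97.6, 117 and 97.1 FPKM at 1000 nM and 56.4 to 74.1 (median 69.0) in DMSO, 1.54-fold higher with no overlap (log2 change 0.62 ± 0.10, adjusted p = 8.50e-07). PSAP measured 394, 469.6 and 371 FPKM against 261 to 319.8 (median 295), again with no overlap (log2 change 0.48 ± 0.09, adjusted p = 2.24e-05).

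CTSA, the protective protein that stabilises the sialidase NEU1, measured 48.5, 65.2 and 48.9 FPKM at 1000 nM against 32.8 to 39.7 (median 37.8) in DMSO (log2 change 0.53 ± 0.13, adjusted p = 0.00139). CTSZ measured 196, 235 and 199 FPKM against 151 to 189 (median 177) (log2 change 0.27 ± 0.09, adjusted p = 0.0196). All 3 libraries of both genes lay above DMSO. GLA, the alpha-galactosidase, went the other way, with 19.4, 18.9 and 16.8 FPKM at 1000 nM, 19.2, 22.1 and 20.0 at 300 nM and 19.7, 21.4 and 21.6 at 100 nM against 22.0 to 36.0 (median 23.7) in DMSO. The libraries at 100 and 1000 nM lay below every DMSO library, and the GLA change was -0.45 ± 0.10 at 1000 nM (adjusted p = 0.000297), -0.30 ± 0.10 at 300 nM (adjusted p = 0.0173) and -0.26 ± 0.10 at 100 nM (adjusted p = 0.0522, not past the threshold).

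The other 5 enzymes and activators did not pass at 1000 nM, and in CTSD, GRN and GAA the libraries of 1 dose lay far apart. CTSD measured 321, 692 and 179 FPKM at 1000 nM, 575, 228 and 646 at 300 nM and 561, 459 and 453 at 100 nM, against 74.4 to 334 (median 275) in DMSO. The CTSD libraries lay above DMSO at 100 nM alone, where the change was 1.24 ± 0.44 (adjusted p = 0.0368), compared with 1.09 ± 0.44 at 300 nM (adjusted p = 0.0524) and 0.72 ± 0.44 at 1000 nM (adjusted p = 0.206). GRN, the precursor of granulins, measured 81.1, 147 and 54.0 FPKM at 1000 nM and 134, 118 and 108 at 100 nM against 39.9 to 88.4 (median 79.6) in DMSO, and passed at no dose (adjusted p = 0.446, 0.106 and 0.0694 at 1000, 300 and 100 nM).

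GAA, the acid alpha-glucosidase whose promoter holds 2 copies of the 10-base element, measured 8.28, 13.6 and 4.52 FPKM at 1000 nM and 13.5, 10.9 and 10.8 at 100 nM against 3.20 to 9.37 (median 8.09) in DMSO. Every GAA library at 100 nM lay above DMSO, yet the change of 0.79 ± 0.34 had an adjusted p of 0.0996. HEXA, a beta-hexosaminidase subunit, rose at 100 nM (0.36 ± 0.12, adjusted p = 0.0201) and 300 nM (0.35 ± 0.12, adjusted p = 0.0163), and NEU1 rose at 300 nM (0.41 ± 0.16, adjusted p = 0.0437). In CTSD, GRN and GAA the lowest libraries at each of 300 and 1000 nM were of the second type.

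**Figure D2:**
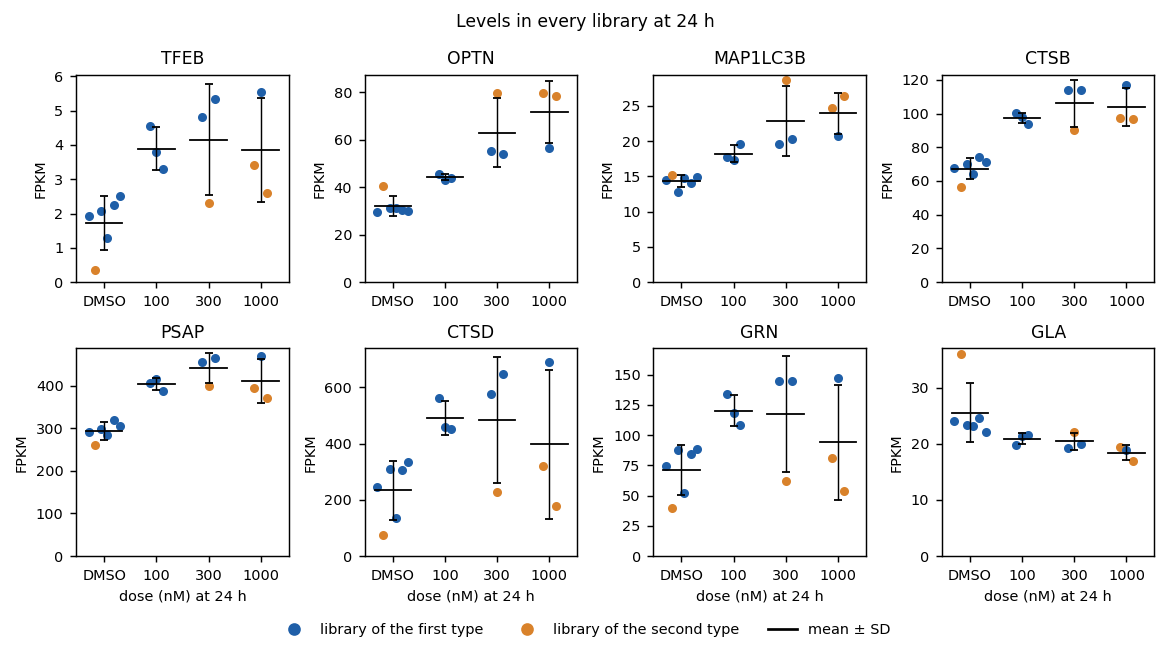
FPKM of 8 members in every library at 24 h by dose, coloured by library type, with the mean and SD of each group. CTSB and PSAP show treated libraries above all DMSO libraries and GLA at 100 and 1000 nM below them, whereas in CTSD and GRN the second-type libraries at 300 and 1000 nM lie within the DMSO range.

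Of the 4 proton pump subunits, 2 rose at 1000 nM. ATP6V0A1, a membrane-embedded subunit, measured 2.54, 3.27 and 3.21 FPKM at 1000 nM, 3.07, 2.08 and 3.01 at 300 nM and 2.75, 2.79 and 2.73 at 100 nM, against 1.70 to 2.03 (median 1.94) in DMSO. No library of any dose overlapped with DMSO, and the change was 0.55 ± 0.12 at 1000 nM (adjusted p = 0.000157). ATP6V1H, a regulatory subunit of the cytoplasmic part, measured 11.2, 8.72 and 11.4 FPKM at 1000 nM against 7.52 to 9.25 (median 8.35). The 2 high libraries of ATP6V1H were of the second type and the third lay inside the DMSO range. Its change of 0.30 ± 0.10 (adjusted p = 0.0157) was 0.06 in the first type alone (adjusted p = 0.704). The catalytic subunit ATP6V1A (0.10 ± 0.09) and ATP6V0D1 (-0.24 ± 0.16) did not pass at any dose.

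In the ATG8 family, whose products are coupled to lipid on the autophagosome membrane, 3 of 4 genes rose at 1000 nM. MAP1LC3B, which encodes LC3B, measured 24.6, 20.8 and 26.3 FPKM at 1000 nM, 19.6, 28.6 and 20.2 at 300 nM and 17.7, 17.3 and 19.6 at 100 nM, against 12.8 to 15.2 (median 14.6) in DMSO. Its change was 0.71 ± 0.09 at 1000 nM (adjusted p = 8.87e-09), 0.63 ± 0.09 at 300 nM and 0.34 ± 0.09 at 100 nM, with no overlap at any dose. GABARAPL1 measured 7.70, 7.07 and 8.70 FPKM at 1000 nM against 3.85 to 6.57 (median 4.45) in DMSO (log2 change 0.70 ± 0.11, adjusted p = 9.67e-07). GABARAPL2 measured 13.9, 14.3 and 13.9 FPKM against 10.4 to 10.9 (median 10.8) (log2 change 0.38 ± 0.08, adjusted p = 7.42e-05).

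Neither gene overlapped with DMSO at 1000 nM. GABARAP, the fourth, measured 0.397, 1.89 and 0.174 FPKM at 1000 nM and 0 to 1.86 (median 1.36) in DMSO, and did not pass at any dose (-0.45 ± 0.47, adjusted p = 0.502 at 1000 nM). GABARAP had 0 reads in 2 libraries: in replicate 2 of DMSO at 24 h a count of 0 allows up to 2.73 FPKM, above the other 5 libraries, and in replicate 2 of 300 nM at 24 h up to 0.719 FPKM (3 reads in each library, counting error only). Reads of MAP1LC3B and GABARAPL1 are uncertain, since each has a near-identical copy in the table (MAP1LC3B2, 3.32 to 14.1 FPKM, and GABARAPL3, 0 to 6.14 FPKM) and the counting could divide reads between them.

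All 3 autophagy receptors rose at 1000 nM, and also at 300 and 100 nM. OPTN, a receptor for damaged mitochondria and bacteria, had the largest change of the list at 1000 nM over all libraries. It measured 79.6, 56.4 and 78.4 FPKM against 29.6 to 40.6 (median 30.7) in DMSO. With type terms the changes of TFEB (1.38), CTSD (1.36) and ULK1 (1.01) at 1000 nM were larger than that of OPTN (0.93). At 300 nM OPTN measured 55.1, 79.7 and 53.9 FPKM and at 100 nM 45.4, 43.1 and 44.0, so that no treated library of any dose overlapped with DMSO. The OPTN change was 1.13 ± 0.13 at 1000 nM (adjusted p = 3.59e-10, 2.19-fold), 0.94 ± 0.13 at 300 nM (adjusted p = 4.37e-08) and 0.46 ± 0.13 at 100 nM (adjusted p = 0.00633). The highest OPTN library of DMSO and of 300 nM was in each case of the second type, as were replicates 1 and 3 of 1000 nM, the higher libraries of that dose. In the first type alone the change at 1000 nM was 0.88 (adjusted p = 3.21e-14).

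SQSTM1, which links ubiquitylated cargo to LC3, measured 40.9, 50.8 and 35.8 FPKM at 1000 nM and 42.0, 43.2 and 40.1 at 100 nM against 22.7 to 35.1 (median 31.9) in DMSO (log2 change 0.49 ± 0.14 at 1000 nM, adjusted p = 0.0042). NBR1, a related receptor for ubiquitylated cargo, measured 31.1, 27.5 and 31.4 FPKM at 1000 nM against 21.6 to 26.0 (median 22.7) (log2 change 0.38 ± 0.07, adjusted p = 2.00e-05). Both genes lay above every DMSO library at 1000 nM, while SQSTM1 at 300 nM and NBR1 at 100 nM overlapped with DMSO.

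Among the 8 genes of autophagosome initiation and conjugation, WIPI1, ATG13 and BECN1 rose at 1000 nM. WIPI1, which binds phosphatidylinositol 3-phosphate on the forming membrane, measured 9.91, 9.41 and 8.71 FPKM at 1000 nM against 5.46 to 6.90 (median 6.18) in DMSO, with no overlap at any dose (log2 change 0.56 ± 0.09, adjusted p = 9.84e-07). ATG13, a partner of the ULK1 kinase, measured 14.5, 15.5 and 11.6 FPKM against 7.97 to 11.6 (median 11.2), with replicate 3 inside the DMSO range (log2 change 0.36 ± 0.10, adjusted p = 0.00438). BECN1, the beclin of the lipid kinase complex, measured 15.1, 13.0 and 15.3 FPKM against 10.3 to 12.9 (median 12.4) (log2 change 0.25 ± 0.06, adjusted p = 0.00147). The BECN1 libraries did not overlap, but the first type alone gave 0.06 (adjusted p = 0.493).

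ULK1, the kinase that starts autophagosome formation, measured 2.60, 4.38 and 1.25 FPKM at 1000 nM, 3.72, 2.79 and 4.02 at 300 nM and 3.63, 2.57 and 2.82 at 100 nM, against 0.271 to 2.45 (median 1.95) in DMSO, where the lowest value rests on 1 read. ULK1 rose at 100 nM (0.88 ± 0.31, adjusted p = 0.0379) and 300 nM (1.07 ± 0.31, adjusted p = 0.00605), and the change at 1000 nM was 0.65 ± 0.31 (adjusted p = 0.0992). The membrane carrier ATG9A (0.23 ± 0.20), the conjugation genes ATG5 (0.13 ± 0.11) and ATG7 (0.14 ± 0.11) and the beclin partner UVRAG (-0.09 ± 0.10) did not pass at any dose.

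Counted by ranges rather than by the test, all libraries of 15 members lay above all DMSO libraries at 1000 nM and those of 1 lay below, beside 12.3% and 10.6% of all genes tested. At 300 nM 16 lay above and 1 below (13.2% and 10.9% of all genes), and at 100 nM 21 above and 2 below (14.7% and 12.1%).

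The count of members that rose was larger once library type was taken into account. With terms for library type 26 members rose and 3 fell at 1000 nM (27% and 20.5% of all genes), 26 and 2 at 300 nM (24.8% and 19.8%) and 24 and 2 at 100 nM (16.8% and 13.8%). All 19 members that passed at 1000 nM over all libraries also passed with these terms, joined by TFE3, CTSD, GAA, HEXA, NEU1, GRN, ULK1 and ATG9A as higher and by MITF and UVRAG as lower. CTSD was then 1.36 (adjusted p = 5.66e-06), GRN 0.83 (adjusted p = 5.16e-06), ULK1 1.01 (adjusted p = 0.00021) and GAA 0.76 (adjusted p = 0.00129).

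In the first type alone, 24 members rose and 2 fell at 1000 nM (19% and 18.7% of all genes), 25 and 2 at 300 nM (23.3% and 21.5%) and 23 and 2 at 100 nM (19.9% and 17.5%). Here 1000 nM is 1 library, replicate 2, which is assumed to vary like the other groups. ATP6V1H and BECN1 passed over all libraries and not in the first type. All 3 libraries at 100 nM were of the first type, and its DMSO group holds 5 of that type and 1 of the second.

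**Figure D3:**
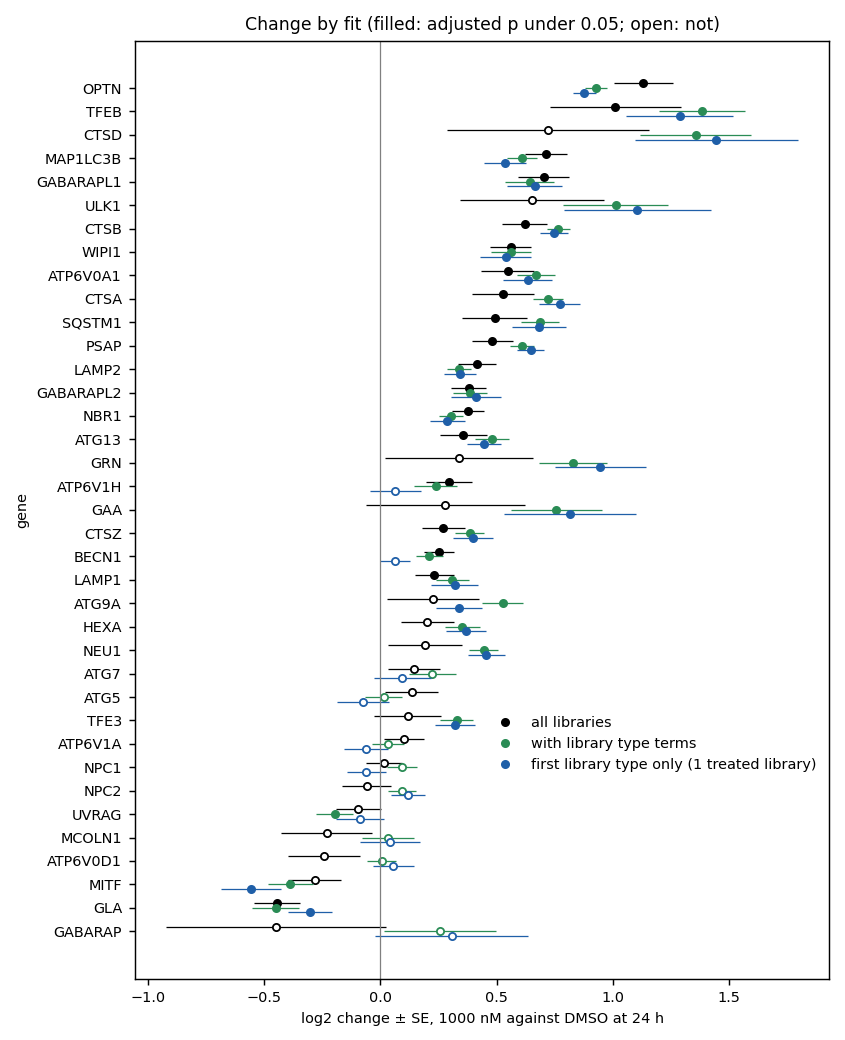
Log2 change ± SE of each member at 1000 nM against DMSO at 24 h over all libraries (black), with terms for library type (green) and in the first type alone (blue, 1 treated library); filled points have an adjusted p under 0.05. CTSD, GRN, GAA and ULK1 are open in black and filled in green and blue, while ATP6V1H and BECN1 are filled in black and green and open in blue.

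Single libraries decided some calls at 1000 nM. Without replicate 2 of that dose 13 members rose, and the calls of TFEB (0.75, adjusted p = 0.0625), LAMP1 (adjusted p = 0.169), CTSZ (adjusted p = 0.165), SQSTM1 (adjusted p = 0.0697) and ATG13 (adjusted p = 0.0586) were lost. LAMP1 was also lost without replicate 1 of 1000 nM (adjusted p = 0.0835) and without DMSO replicate 2 (adjusted p = 0.0692). ATP6V1H was lost without replicate 1 (adjusted p = 0.112) or replicate 3 (adjusted p = 0.129). ULK1 passed without replicate 3 (1.04, adjusted p = 0.0181). LAMP2, CTSA, CTSB, PSAP, ATP6V0A1, MAP1LC3B, GABARAPL1, GABARAPL2, NBR1, OPTN and WIPI1, 11 of the 19, passed in all 18 alternatives counted for this comparison. These were the other settings and the omission of each 1000 nM or DMSO library at 24 h. At 100 nM the number that rose was 11, 12 and 11 without replicates 1, 2 and 3. No share of all genes is given beside the counts of this paragraph, so they are not read as results about the members.

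Dose was compared directly between 1000 and 100 nM at 24 h. At the higher dose 2 of the 37 members were higher and 0 were lower, beside 2.08% and 2.86% of all genes tested. At an unadjusted p under 0.05 there were 7 members in either direction, beside 3358 of the 15866 genes tested. OPTN differed by 0.67 ± 0.15 (adjusted p = 0.00239) and MAP1LC3B by 0.38 ± 0.10 (adjusted p = 0.0234), and in both genes every library at 1000 nM lay above every library at 100 nM. With type terms the OPTN difference was 0.40 (adjusted p = 2.96e-07) and that of MAP1LC3B 0.24 (adjusted p = 0.0334). In the first type alone they were 0.35 (adjusted p = 4.64e-05) and 0.19 (adjusted p = 0.36). The 1000 nM group held 2 second-type libraries and the 100 nM group held none. With type terms 6 members passed (7.92% of all genes in either direction), CTSA, CTSB, PSAP and TFE3 in addition, and in the first type alone 4 passed (5.49%), without MAP1LC3B. TFEB showed 1.01, 1.10 and 1.07 at 1000, 300 and 100 nM, and its difference between 1000 and 100 nM was -0.06 ± 0.33 (adjusted p = 0.928). With type terms the TFEB changes were 1.38, 1.22 and 0.94 and the difference turned to 0.44 (adjusted p = 0.256), and in the first type alone it was 0.47 (adjusted p = 0.372). Leaving out replicate 1 or 3 of 1000 nM or replicate 1 or 2 of 100 nM left 1 member past the threshold, and leaving out replicate 2 of 1000 nM gave 5. The share of all genes with a library left out is not given, so these counts show only how the calls moved.

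At 1 h and 3 h no member passed the test at any dose, beside 0% of all genes at 1 h and 0.0693%, 0.126% and 0.132% of all genes in either direction at 100, 300 and 1000 nM at 3 h. At an unadjusted p under 0.05 there were 1, 0 and 2 members at 100, 300 and 1000 nM at 1 h and 2, 1 and 4 at 3 h. Of all 15866 genes tested, 809, 192 and 1637 had such a p at 1 h and 933, 933 and 1176 at 3 h. Fits differed: limma's voom on recovered reads also called 0 at both times, whereas array weights gave 47 calls over both times together. The share of all genes called with array weights is not given here, so the 47 are not read as a result about the members. TFEB at 3 h measured 1.88, 1.31 and 2.12 FPKM at 1000 nM against 0.671 to 1.97 (median 1.79) in DMSO, and at 1 h 1.58, 1.15 and 0.421 against 0.787 to 2.06 (median 1.71). These groups overlapped. DMSO at 1 h and 3 h each held 3 third-type libraries, a type found in no treated group. At 1 h, 2 of the 3 libraries at 1000 nM were of the second type.

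At 6 h GABARAPL1 alone rose, at 1000 nM, beside 0.706% of all genes higher and 1.3% lower. It measured 4.35, 3.96 and 4.61 FPKM against 2.67 to 3.51 (median 3.17) in DMSO, with no overlap (log2 change 0.41 ± 0.11, adjusted p = 0.0321). The call was lost on leaving out any one of the 3 treated libraries (adjusted p = 0.159, 0.0599 and 0.261) or DMSO replicate 1, 2 or 4. GABARAPL1 passed with type terms (0.43, adjusted p = 0.00629) and did not in a fit of the compared groups only (adjusted p = 0.111). TFEB at 6 h measured 3.37, 3.22 and 3.56 FPKM at 1000 nM and 1.41 to 2.72 (median 2.12) in DMSO, and the groups did not overlap, but the change of 0.63 ± 0.28 had an adjusted p of 0.482. In the first type alone TFEB (0.56, adjusted p = 0.0198) and LAMP2 (0.16, adjusted p = 0.0304) passed too, beside 8.07% of all genes in either direction. At 100 and 300 nM 0 members passed at 6 h (0.863% and 1.67% of all genes in either direction), with 1 member at an unadjusted p under 0.05 at each dose and 0 by voom. Of all 15866 genes tested, 818 and 1564 had an unadjusted p under 0.05 at 100 and 300 nM.

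The change at 1000 nM was then compared between 24 h and 6 h. It was larger at 24 h for 9 members and smaller for 1, beside 8.16% and 6.95% of all genes tested. Over all libraries OPTN showed the largest difference, 1.11 ± 0.18 (adjusted p = 6.75e-06), with 0.02 at 6 h and 1.13 at 24 h. MAP1LC3B differed by 0.61 ± 0.13 (adjusted p = 0.000444), GABARAPL2 by 0.49 ± 0.11 (adjusted p = 0.000807) and NBR1 by 0.39 ± 0.10 (adjusted p = 0.00325). The 9 also held WIPI1 (0.51 ± 0.12, adjusted p = 0.00232), BECN1 (0.33 ± 0.09, adjusted p = 0.00799), CTSB (0.49 ± 0.14, adjusted p = 0.00935), PSAP (0.42 ± 0.13, adjusted p = 0.0178) and ATP6V0A1 (0.53 ± 0.16, adjusted p = 0.0191). GLA differed by -0.43 ± 0.14 (adjusted p = 0.0284). With type terms CTSD differed by 1.29 and OPTN by 0.84.

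TFEB did not pass this comparison (0.38 ± 0.40, adjusted p = 0.603), nor did GABARAPL1 (0.29 ± 0.16, adjusted p = 0.223). With type terms 22 members passed, TFEB among them, beside 27.4% of all genes in either direction, and in the first type alone 17, beside 24.6%. BECN1 (0.10, adjusted p = 0.396) and GLA (-0.28, adjusted p = 0.0765) did not pass in the first type, where MAP1LC3B differed by 0.40 and PSAP by 0.64.

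**Figure D4:**
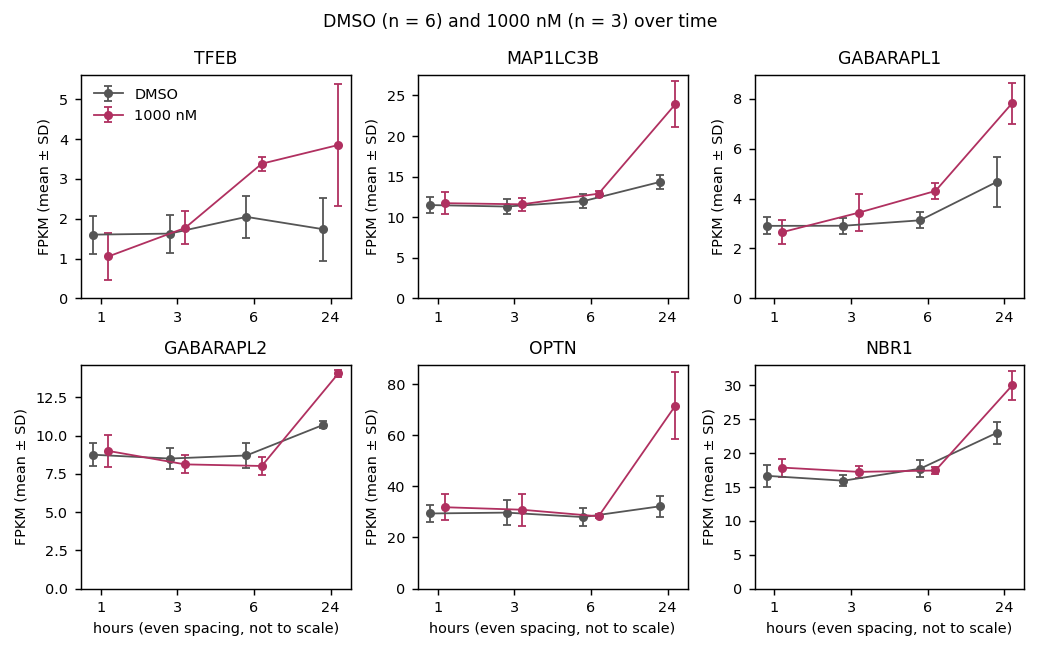
Mean FPKM ± SD of 6 members over time in DMSO (grey, 6 libraries per time) and at 1000 nM (red, 3 libraries per time), with times evenly spaced. OPTN, GABARAPL2 and NBR1 at 1000 nM stay near DMSO to 6 h and lie above it at 24 h, and DMSO itself rises between 6 and 24 h in MAP1LC3B, GABARAPL1, GABARAPL2 and NBR1.

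The control cells changed over the same interval. Between 6 h and 24 h in DMSO 5 members rose and 2 fell, beside 4.96% and 4.38% of all genes tested. GABARAPL1 went from 2.67 to 3.51 (median 3.17) to 3.85 to 6.57 (median 4.45) FPKM with no overlap (log2 change 0.50 ± 0.09, adjusted p = 0.00011), and NBR1 from 15.8 to 19.1 (median 17.8) to 21.6 to 26.0 (median 22.7) (0.37 ± 0.06, adjusted p = 6.90e-06). GABARAPL2 (0.29 ± 0.06), LAMP2 (0.27 ± 0.07) and MAP1LC3B (0.25 ± 0.07) also rose, and LAMP1 (-0.22 ± 0.07) and PSAP (-0.22 ± 0.07) fell. These DMSO libraries are also the controls of the treated groups at 24 h. Without DMSO replicate 2 at 24 h, or replicate 1 or 4 at 6 h, 4 members passed, with no share of all genes given for these fits.

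Other genes of the pathway, 157 in 6 lists of which 145 could be tested, gave 56 higher and 11 lower at 1000 nM at 24 h, beside the 19.1% and 15.6% of all genes above, with a median log2 change of 0.23. These lists, like the members, were chosen with earlier results of these data known. The lysosomal hydrolases held 17 higher and 2 lower of 37 (median 0.31). The autophagy receptors held 7 higher and 0 lower of 11 (median 0.51), and the lysosomal membrane and sorting genes 8 higher and 3 lower of 22 (median 0.29). The autophagy machinery held 11 higher and 2 lower of 31 (median 0.19), the genes of mTORC1 and nutrient control of TFEB 9 and 2 of 28 (median 0.16) and the other proton pump subunits 4 and 2 of 16 (median 0.13).

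Named from each list are the 3 highest and 3 lowest changes past the threshold, or fewer where fewer passed. The sialic acid exporter SLC17A5 measured 35.1, 30.4 and 35.2 FPKM at 1000 nM against 13.2 to 17.0 (median 15.4) in DMSO (log2 change 1.12 ± 0.07, adjusted p = 3.45e-17). The pump subunit ATP6V0D2 measured 1.34, 2.26 and 2.89 FPKM against 0 to 0.665 (median 0.474) (log2 change 1.55 ± 0.19, adjusted p = 2.44e-09), and ATP6V0A4, an alternative to ATP6V0A1, 1.45, 0.782 and 0.784 against 2.59 to 4.24 (median 3.18) (log2 change -1.34 ± 0.12, adjusted p = 6.11e-13). Within the proton pump these genes went in opposite directions, and the 1000 nM libraries of all 3 genes lay outside the DMSO range.

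Receptors and regulators with ATG8-binding roles rose as well, TP53INP1 by 1.42 ± 0.12 (adjusted p = 2.50e-13), the reticulum receptor CCPG1 by 0.78 ± 0.13 (adjusted p = 6.77e-06) and the mitochondrial receptor BNIP3L by 0.59 ± 0.11 (adjusted p = 1.40e-05). In the machinery list ZFYVE1 (0.95), VAMP8 (0.79) and RB1CC1 (0.69) were the highest and ATG101 (-0.70) and EPG5 (-0.50) the 2 that fell. Among the hydrolases CTSK (0.94), CTSO (0.88) and AGA (0.70) were the highest, and CTSC (-0.54) and PPT1 (-0.43) fell. Of the sorting and membrane genes IGF2R (0.64) and SCARB2 (0.62), receptors that carry enzymes to lysosomes, rose, while M6PR (-0.41), which also carries enzymes, LAPTM4B (-0.46) and MCOLN2 (-0.54) fell.

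The pump list also held ATP6AP2 (0.29) and ATP6V1E1 (0.29) as higher and ATP6V0A2 (-0.42) as lower. In the list of mTORC1 and nutrient control the Rag GTPases RRAGC (0.68) and RRAGB (0.57) and the inhibitor TSC2 (0.53) rose, and RRAGD (-0.29) and the kinase MTOR (-0.29) fell. All 29 genes named from these lists passed with type terms, and 5 did not in the first type alone: ATG101 (-0.16, adjusted p = 0.432), MTOR (-0.20, adjusted p = 0.117), MCOLN2 (-0.38, adjusted p = 0.211), ATP6AP2 (0.22, adjusted p = 0.0597) and ATP6V1E1 (0.17, adjusted p = 0.0519). CTSK did not pass the filter on low values in the first type alone and was not tested there, so it counts neither way. There RB1CC1 was 0.36, AGA 0.37, CCPG1 0.39, RRAGB 0.38, TSC2 0.80 and ATP6V0A2 -0.65.

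**Figure D5:**
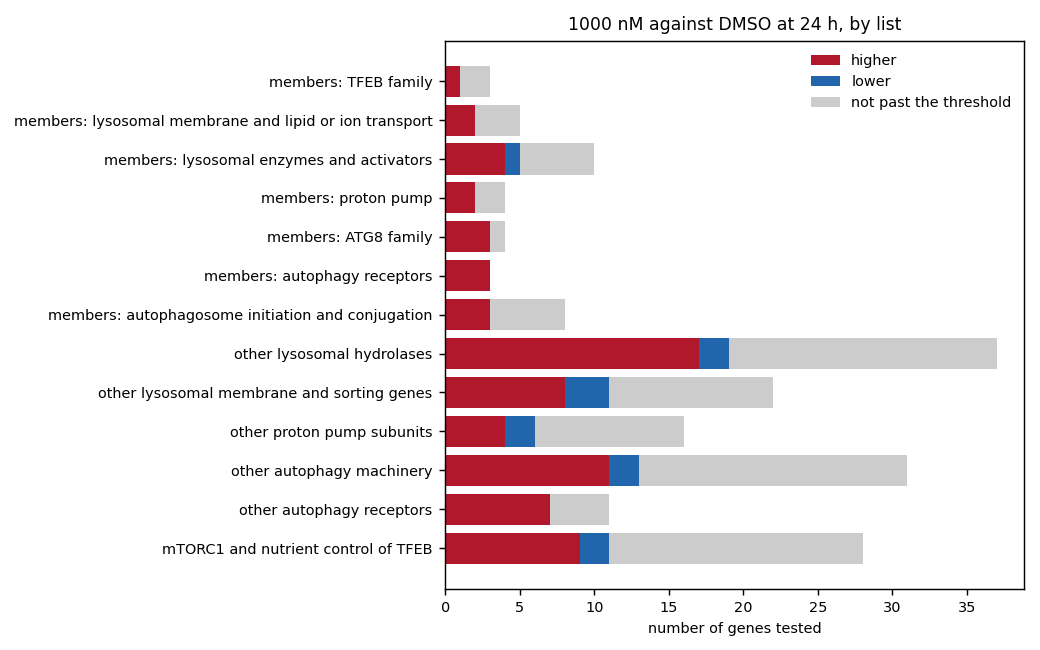
Number of genes higher, lower and not past the threshold at 1000 nM against DMSO at 24 h, for the 7 roles of the members and the 6 lists of other pathway genes. The autophagy receptors among the members are higher in 3 of 3, and the largest list, the other lysosomal hydrolases, in 17 of 37.

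At 6 h and 1000 nM, 3 of the same 145 genes rose and 2 fell, beside 0.706% and 1.3% of all genes. With 300 nM at 24 h 55 of them rose and 9 fell (16.5% and 14.2% of all genes), and with 100 nM 40 rose and 6 fell (10.5% and 9.2%).

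Macrophages are rich in lysosomes, so their markers were read beside the members. Summed over 5 genes, they measured 2.14 to 4.80 FPKM at 1000 nM and 0 to 3.62 in DMSO at 24 h. CD163 was at most 0.0302 and PTPRC at most 0.101 in any library. Of the 2 macrophage genes tested, CSF1R was higher at 1000 nM (1.92, 2.33 and 1.30 FPKM against 0 to 1.45 (median 1.21), log2 change 0.70, adjusted p = 0.00687) and CD14 did not pass. At 300 nM CSF1R was also higher (1.07, adjusted p = 6.03e-05). At 100 nM both were higher, CSF1R with 2.19, 2.12 and 1.98 FPKM (log2 change 0.87, adjusted p = 0.0017) and CD14 with 2.83, 2.06 and 2.39 against 0 to 2.12 (median 1.30) (0.91, adjusted p = 0.0486). Melanocyte markers, read because MITF is known from pigment cells, summed to at most 0.972 FPKM over the 3 found. Of the luminal markers tested, CDH1 was higher (0.61, adjusted p = 0.00169), GATA3 lower (-0.62, adjusted p = 0.000589) and KRT8 not past the threshold, and the list summed to 87.9 to 136 FPKM at 1000 nM and 85.6 to 131 in DMSO. The mesenchymal list summed to 943 to 981 and 1007 to 1051 FPKM, with VIM (0.29) and CD44 (0.45) higher and CAV1 (-0.46) and AXL (-1.28) lower. The part of these markers in the members' changes was not tested.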

How the data were processed

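RNA of 60 MDA-MB-231 libraries was sequenced. Per the submitters' processing notes the tools were STAR 2.4.2a, featureCounts 1.4.6-p2 of Subread and DESeq2, with the build hg19, and no annotation is named there. The authors deposited log2(FPKM + 1) per gene name, whereas the tests had been chosen for plain FPKM, so the values were turned back to FPKM. Of the values above 0, 100% came within 0.01 read of a whole read per gene and library, which gave depths of 475370 to 86491555 recovered reads. Depth limits low genes most, and intervals for a count of 0 cover counting error only.

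Groups came from the sample labels. The test was limma 3.58.1 (R 4.3.3, trend and robust options) on log2(FPKM + 0.5), with 1 mean for each of 16 groups, 44 residual degrees of freedom and Benjamini-Hochberg adjustment over the 15866 genes that reached 1 FPKM in 3 or more libraries. Summaries used Python 3.11.15 with pandas 2.3.3. Both steps were tested on simulated data. No pair of libraries of a group agreed within sampling noise (lowest chi-square per degree of freedom 1.57), so none was dropped as a copy of another. Libraries of 1 culture can also differ by more than that noise, so this cannot show that the cultures were separate.

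The members and lists were chosen with earlier results of these data known. Named with values were TFEB, TFE3 and MITF, members past the threshold at 1000 nM at 24 h, at earlier times, between doses or between times, and the 3 highest and 3 lowest genes past it in each other list. Other members are named to account for all 37. The alternatives were a pseudocount of 0.1, no filter, median-of-ratios scaling, array weights, a fit of the compared groups only, terms for library type, the first type only, omission of libraries under 2000000 reads, limma's voom on recovered reads, and omission of each library in turn. Protein sequences of the ATG8 family are not used here.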

Additional observations from a re-analysis of the deposited data

Results flagged for a closer look

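In the groups of 6 DMSO libraries at 6 and 24 h, single libraries stood apart from the other 5 for 14 members, 16 times in 74 groups where chance gives about 1 in 20, or 3.7. The share of the range taken by the gap to the nearest library decided this. The 74 groups reuse the same 6 libraries at each time, so they are not independent and 3.7 is a rough guide. No share over all genes tested is given, so the count is not read as a trait of these members. Replicate 2 at 24 h, the shallowest library and of the second type, stood apart for 10 members. It was low for NPC2 (45.1 FPKM), ATG7 (1.403), ATG9A (3.81), ATG13 (7.97) and BECN1 (10.3). GABARAP had 0 FPKM there, which is counted among the 10, but a count of 0 in this library allows up to 2.73 FPKM, above the other 5, so it is not shown to be low. It was high for GLA (36.0), GABARAPL1 (6.57), NBR1 (26.0) and OPTN (40.6). Replicate 5 at 6 h, also of the second type, was low for CTSB (56.3 FPKM), PSAP (281) and ATP6V0D1 (6.80) and high for OPTN (34.9) and BECN1 (15.3). Replicate 1 at 6 h was high for LAMP1 (46.0 FPKM).

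The change at 1000 nM differed between 24 h and 6 h for 10 of the 37 members, by limma's test of the difference adjusted over all genes. It was larger at 24 h, on the log2 scale, by 1.11 in OPTN, 0.61 in MAP1LC3B, 0.53 in ATP6V0A1, 0.51 in WIPI1, 0.49 in GABARAPL2, 0.49 in CTSB, 0.42 in PSAP, 0.39 in NBR1 and 0.33 in BECN1. In GLA the difference was -0.43.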

How the results depend on the processing

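No paired analysis was possible because the title numbers run from 1 to 60 and the groups share no replicate numbers. Counts in this section show how the calls moved with the processing, and calls over all genes move with it too. Where no share of all genes was given above for the same fit, the counts are not read as results about the members. The number of members higher at 24 h stayed within 1.5 times of 18, 20 and 19 (1000, 300 and 100 nM), except where only the compared groups were fitted or, for 100 nM, where 1 library was left out. With only the compared groups fitted it was 11, 13 and 12, while 0 fell for 1000 or 100 nM and 1 fell for 300 nM. That fit gave 40 other pathway genes, 0 higher at 1000 nM at 6 h, 0 between doses and 4 in DMSO between times. The number lower at 100 nM was 2 by median-of-ratios scaling, array weights, type terms, first type or voom, and 0 with no filter or without shallow libraries. The number lower at 1000 nM was 4 by array weights, 3 by type terms and 2 by median-of-ratios scaling, first type or voom. At 6 h array weights gave 3 members higher with 1000 nM, 2 higher with 1 lower for 300 nM and 1 each way for 100 nM, and 47 calls over 1 h and 3 h together. The first type gave 3 higher at 1000 nM at 6 h. Between 1000 and 100 nM 15 members passed by array weights, 6 by type terms, 4 in the first type and 1 by voom. Between times at 1000 nM it was 17, 22 and 17 by array weights, type terms and first type, and in DMSO 12, 16 and 16.

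Leaving out 1 library at a time, the number of members that rose was 13 to 18 for 1000 nM at 24 h (fell, 1 to 2), 15 to 21 for 300 nM (1 to 2) and 11 to 19 for 100 nM (0 to 2). It was 0 to 1 for 1000 nM at 6 h, 1 to 5 between doses, 8 to 12 between times, 4 to 8 in DMSO and 51 to 73 for other pathway genes, and 0 to 0 at 1 h, 3 h and elsewhere at 6 h. The count of 51 came without replicate 3 of 1000 nM.

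Log2 changes at 1000 nM and 24 h turned sign only in members that had not passed. By array weights these were TFE3 (-0.059), MITF (0.038), GAA (-0.067), NEU1 (-0.0084), GRN (-0.027) and ATG9A (-0.093). Type terms turned NPC2 (0.092), MCOLN1 (0.031), ATP6V0D1 (0.0046) and GABARAP (0.26). The first type turned NPC1 (-0.060), NPC2 (0.12), MCOLN1 (0.042), ATP6V0D1 (0.056), ATP6V1A (-0.063), GABARAP (0.31) and ATG5 (-0.075). NPC1 was -0.0027 by median-of-ratios scaling, -0.025 without shallow libraries and -0.087 by voom, and ATP6V1A -0.014 by voom. With 1 library left out, TFE3 ran from -0.0038 to 0.19, NPC1 from -0.025 to 0.050, NPC2 from -0.17 to 0.019, GAA from -0.082 to 0.66 and GRN from -0.043 to 0.67. The cause was not tested. Depth limits GABARAP, TFEB and ULK1 most, with 0 or 1 read in the shallowest library.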

Other observations

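Levels of several members differed between library types over all doses and times, as medians with no test. CTSD had a median of 317 FPKM in the 41 first-type libraries and 152 in the 13 second-type libraries. GRN had 94.7 and 50.4 FPKM, TFEB 2.12 and 1.31, and GABARAP 1.27 and 0.232. OPTN went the other way, with 27.3 FPKM in the first type and 37.6 in the second. The types hold different mixtures of doses and times, and their part in these medians was not tested.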
